A study of Mus musculus with 2 samples.

Results

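Non-dividing immature neutrophils of mouse bone marrow were compared between a control and a MYC library of single cells. A barcode was counted as such a cell when it held 1000 or more UMIs (unique molecular identifiers, each standing for a captured transcript molecule) with under 10% of them mitochondrial. It also needed at least 2% of its UMIs from Camp, Ngp and Ltf together, under 1% from Elane, Mpo, Prtn3 and Ctsg together, and no UMI of Mki67 or Top2a. These limits left 1254 cells of the control and 1337 cells of the MYC library, 2591 of 31569 barcodes in all. The cells were thus chosen by measured values, so the levels of those 9 genes describe the choice and are not findings. The study set out to compare expression between marrow blood cells with and without a MYC transgene switched on from stem cells. Both libraries came from primary marrow cells that carried Mx1-Cre on 1 allele (Mx1Cre+/-). The control was Mx1Cre+/-;Rosa26+/+, with both Rosa26 loci unaltered, and the MYC library was Mx1Cre+/-;Rosa26LSL-MYC/LSL-MYC, with a MYC transgene behind a loxP-flanked stop cassette on both Rosa26 alleles. The Mx1 promoter responds to interferon and is active in many cell types, so Cre is not confined to stem cells or granulocytes. The age of the mice, how and when Cre was induced, and how many mice entered each library are not given in the sources used here.

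Neutrophils are made in the marrow from dividing progenitors that first fill primary granules with myeloperoxidase and the serine proteases elastase, proteinase 3 and cathepsin G. At the myelocyte and metamyelocyte stages they switch to the secondary granule proteins, among them the cathelicidin Camp, neutrophilic granule protein (Ngp) and lactoferrin (Ltf), and leave the cell cycle. They then make gelatinase granules, surface receptors and cytosolic S100 proteins, acquire a segmented nucleus and are released into the blood.

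Each group was 1 library, so no difference could be set against a spread between mice and none was tested. UMIs of the selected cells were summed per library and are given as counts per 1000000 UMIs of those cells (CPM). Ratios are log2 of MYC over control with 1 CPM added to each side, which understates the ratios of low genes. Intervals cover 95% and counting error only, and belong to the ratio with nothing added, so the printed ratio of a low gene lies nearer to 0 than the middle of its interval and can fall outside it. A gene is called higher or lower where its CPM, with nothing added, differed at least 1.5-fold and the counting interval excluded equality. The word "higher" or "lower" of a gene below thus compares these libraries, not the genotypes.

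The libraries held 131884603 and 110012176 UMIs in 17073 and 14496 barcodes, control first here and throughout, and the selected cells 7830385 and 9036398 UMIs. They shared 97 barcodes, none of them between selected cells. RNA of other cells was present in the selected cells and differed between the libraries. Igkc, an immunoglobulin light chain of B-lineage cells, was at 2171 and 335 CPM. That is 15.6% and 4.10% of its level in barcodes outside the granulocyte classes, which are defined below. Haemoglobin Hbb-bs was at 555 and 535 CPM. Of 10 B-lineage markers 6 reached 50 UMIs and all 6 were called lower in the MYC library, against 19.8% of all genes, their list summing to 282 and 27.7 CPM, with Igll1 at 0 in the MYC library. Of 9 dendritic cell markers 8 were measured and 8 called lower, summing to 331 and 107 CPM. The erythroid list summed to 1977 and 1204 CPM, with 5 of 10 measured genes called lower and 5 neither. All 3 measured genes of the stem or progenitor list were called lower, and it summed to 44.4 and 19.3 CPM. The monocyte list summed to 1185 and 1183 CPM and the T or NK list to 53.3 and 45.4 CPM. The macrophage list summed to 146 and 175 CPM. Of its 7 measured genes 3 were called higher, 1 lower and 3 neither, against 6% higher and 19.8% lower of all genes. The 3 called higher were complement genes, among them C1qb at 8 and 189 UMIs in 0.638% and 5.98% of the cells. Adgre1 was the gene called lower, with a UMI in 2.63% and 1.35%. Their part in the results below was not tested, beyond what is said for Irf8 and Il1b.

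MYC was measured in 2 ways. The feature named MYC, whose sequence is not given in the sources used here, had 0 UMIs in the control cells, which, at a limit of 3 counts over 1254 cells, allows up to 0.239% of cells with a UMI. In the MYC library it had 33 UMIs in 31 cells (2.32%), or 3.65 CPM with an interval of 2.51 to 5.13. The same feature was at 9.18 CPM in mature neutrophils, 2.65 CPM in barcodes outside the granulocyte classes and 0.645 CPM in granulocyte progenitors of the MYC library, and at 0 in every one of these classes of the control. The mouse Myc gene had 19 and 25 UMIs, or 2.43 and 2.77 CPM, with intervals that overlapped. In barcodes outside the granulocyte classes Myc was at 32.6 and 34.6 CPM, so these cells held little of it in either library.

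The marker Ly6g, a surface protein of maturing neutrophils that was no part of the selection, fitted the word neutrophil in the name of the class. Mature neutrophils held it as well, so it does not bear out the word immature. Ly6g was at 702 and 542 CPM in the selected cells and at 376 and 488 CPM in mature neutrophils. Mature neutrophils had Camp, Ngp and Ltf under 2% but S100a8 and S100a9 at 5% or more of UMIs. They also had under 1% primary granule UMIs and no UMI of Mki67 or Top2a. Ly6g was at 23.4 and 22.7 CPM in granulocyte progenitors (at least 1% primary granule UMIs) and at 34.4 and 46.8 CPM in barcodes outside the granulocyte classes. The latter passed the UMI and mitochondrial limits but were not progenitors, mature neutrophils or cells past the granule gene limits of the selection. They take in any cell that met the limits for mature neutrophils except for a UMI of Mki67 or Top2a, so neutrophils can be among them. A UMI of Ly6g was seen in 86.6% and 80.3% of the selected cells. The primary granule limit cut through few cells: 11 and 5 held between 0.5% and 1%, and none between 1% and 2%. The limit on Camp, Ngp and Ltf cut through a continuum, with 139 and 174 selected cells between 2% and 3%, and 177 and 305 cells that would have qualified but for a share between 1% and 2%.

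The word "non-dividing" held less firmly. All cells past the limits on granule genes numbered 4379 and 3881, and the number of cells fell without a gap from 0 to 6 UMIs of Mki67 and Top2a. There were 1201 and 1219 cells with 10 or more of these UMIs, 197 and 195 with 5 to 9, 1727 and 1130 with 1 to 4, and the 1254 and 1337 with none. Late neutrophils with over 3% of UMIs from Retnlg also held a UMI of Mki67 or Top2a in 45.8% and 42.9% of cells, at median depths of 4301 and 5167 UMIs. Summed over a list of 37 G2 and mitosis genes, the selected cells were at 1260 and 1303 CPM and the cells with 1 to 4 UMIs at 1633 and 1971 CPM. The late neutrophils were at 1027 and 1068 CPM, against 10974 and 11452 CPM in the cells with 10 or more. On this list the selected cells and those with 1 to 4 UMIs lay nearer to the late neutrophils than to the cells with 10 or more. The late neutrophils were taken by Retnlg alone and not kept apart from the selected cells. Some cells are in both groups, since the highest Retnlg share of a selected cell was 4.73% and 5.90%.

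**Figure D1:**
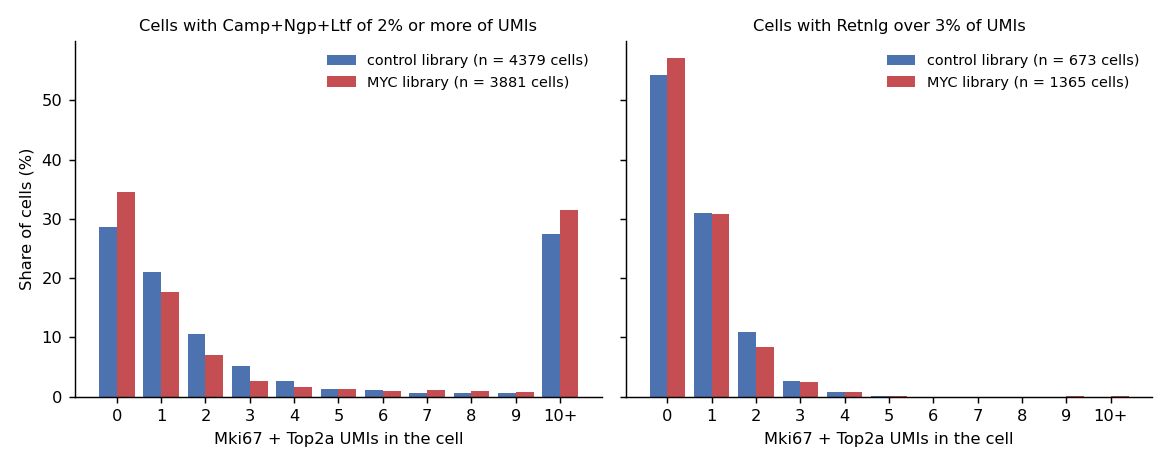
Share of cells (y axis, %) by the number of Mki67 and Top2a UMIs in the cell (x axis, 10 or more pooled), in cells past the granule gene limits (left) and in late neutrophils with over 3% Retnlg (right), for each library. In cells past the limits the shares fall from 0 to 6 UMIs, and the last bar pools every count from 10 up; the late neutrophils lie mostly at 0 to 4.

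The selected cells were 9.46% (8.97 to 9.97) of the 13251 control barcodes that passed the UMI and mitochondrial limits and 12.7% (12.1 to 13.3) of 10543 in the MYC library. The difference was 3.22 percentage points, with a counting interval of 2.41 to 4.03. When cells with under 5 division UMIs were kept, an alternative added after the data were seen, the shares were 22.5% and 23.4%. The difference then was 0.903 points and its interval, -0.178 to 1.99, included 0. Most of the difference in share thus lay between cells with 0 and cells with 1 to 4 division UMIs. Mki67 and Top2a together were lower in the MYC library in cells with 10 or more of their UMIs (2406 and 1714 CPM). The same held with 1 to 4 (280 and 228 CPM) and in late neutrophils (149 and 121 CPM). How far this level bears on the number of cells with 0 was not tested.

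Within each library the cells spanned a wide range. Depth had a median of 6021.5 and 7016 UMIs per cell, with 1627 and 1662 genes and 0.993% and 1.03% mitochondrial UMIs. The summed Camp, Ngp and Ltf share had a median of 8.68% and 6.60%. Its central 90% of cells ran from 2.41% to 13.1% and from 2.31% to 10.8%, so the distributions overlapped over most of their range. The share of S100a8 and S100a9 had medians of 22.8% and 28.5%, with the central 50% of cells from 18.9% to 26.3% and from 24.9% to 31.5%. For ribosomal protein genes the medians were 2.61% and 4.86%. The central 50% of cells ran from 2.18% to 3.29% and from 4.05% to 6.26%, ranges that did not meet. The central 90% ran from 1.77% to 7.65% and from 3.32% to 10.7%, so the distributions overlapped here too.

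Over all genes, 8320 had 50 or more UMIs in the selected cells of both libraries together. Of these, 499 (6%) were called higher and 1650 (19.8%) lower in the MYC library, and the median ratio was -0.24. Scaling by the median of gene ratios instead of the UMI total, which sets that median to 0, gave 1035 higher and 628 lower, so the balance of calls rests on the scaling and list medians are read against -0.24. Where the mean reached 100 CPM, 126 of 1019 were called higher and 117 lower. Ribosomal protein genes made up 63 of the 499 called higher. Of those 499, 96 had a higher CPM in the selected cells than in barcodes outside the granulocyte classes of the same library (19.2%), as had 2562 of all 8320 genes (30.8%). Of the 1650 called lower 717 (43.5%) did so in the control, as did 2886 of all 8320 genes (34.7%).

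**Figure D2:**
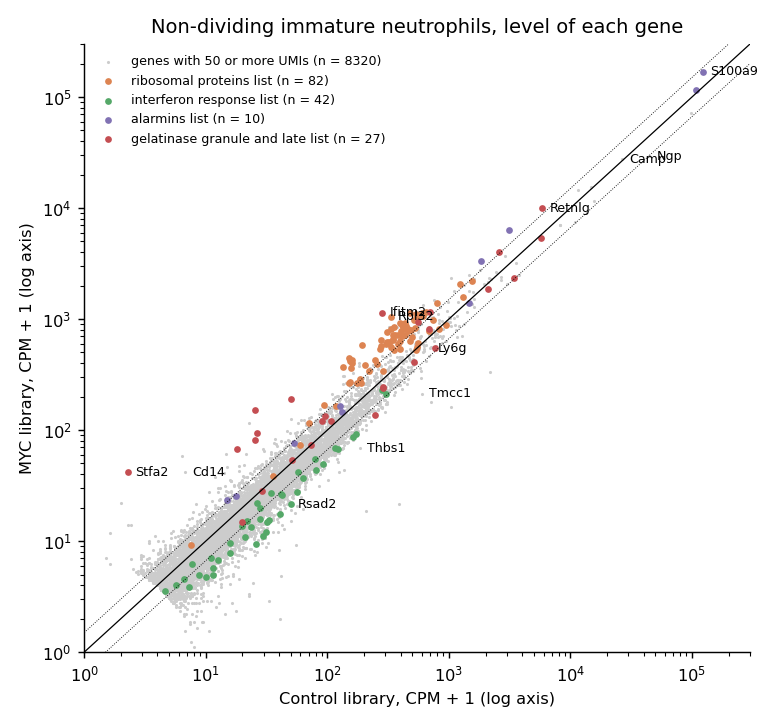
Level of each gene with 50 or more UMIs in non-dividing immature neutrophils of the control (x axis) and the MYC library (y axis), in CPM + 1 on log axes, with 4 gene lists coloured. The solid line is equality and the dotted lines are 1.5-fold either way; 63 of 82 ribosomal protein genes were called higher and 29 of 42 interferon response genes lower, and the others of both lists were called neither.

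The levels of Camp, Ngp and Ltf describe the cells that the rule kept. Camp, the cathelicidin (chromosome 9, 109847379 to 109849617 in GRCm38), was at 26641 and 27378 CPM, a ratio of 0.04. Ngp was at 44402 and 29303 CPM (-0.60), and lactoferrin Ltf at 15484 and 11478 CPM (-0.43). Ly6g had a ratio of -0.37 (-0.43 to -0.32). The ratio of Ngp was -0.31 when 4 bins of the Camp, Ngp and Ltf share were weighted equally and -0.35 under median scaling. Of 17 other measured genes of the secondary granule list, 2 were called higher, 2 lower and 13 neither, against 6% and 19.8% of all genes called higher and lower, with a median of 0.09. Olfactomedin 4 (Olfm4), made by a subset of neutrophils, was at 303 and 458 CPM (0.60) and had a UMI in 10.8% and 18.1% of cells. Thinned to 1000 UMIs per cell, those shares were 8.21% and 14.7%. Without any UMI of 11 division genes its ratio was 0.20, and it fell short of 1.5-fold under other alternatives too. The secreted glycoprotein Lrg1 was at 545 and 826 CPM (0.60), and at 0.55 in cells with at least 4% Camp, Ngp and Ltf. The chitinase-like protein Chil3 was at 3746 and 2486 CPM (-0.59) and the glucokinase Adpgk at 1162 and 687 CPM (-0.76). The ratio of Chil3 was -0.06 with the bins weighted equally, and that of Adpgk -0.51 under median scaling, short of 1.5-fold. Lipocalin 2 (Lcn2), an iron-siderophore binding protein and the most abundant gene of the list, was at 14663 and 15558 CPM, a ratio of 0.09.

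Of 16 measured early granulocyte genes, 3 were called higher and 4 lower, against 6% and 19.8% of all genes, with a median of 0.01. The transcription factor Sox4 had 58 and 12 UMIs (-1.85), the stem cell factor receptor Kit 134 and 84 UMIs (-0.81) and the endoplasmic reticulum chaperone Hsp90b1 1512 and 917 UMIs (-0.92). The granule protease Prss57 had 55 and 115 UMIs (0.77). Kit was at -0.49 as a mean over cells and Prss57 at 0.39 without any UMI of 11 division genes, both under 1.5-fold, as both were with 10 CPM added, where Sox4 was at -0.62.

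Of 27 measured genes of gelatinase granules and late maturation, 11 were called higher and 1 lower, against 6% and 19.8% of all genes, and the list median was 0.24. Stefins, intracellular inhibitors of cysteine proteases that lie in a cluster on chromosome 16, were among them. Stfa2 had 10 and 367 UMIs, 1.28 and 40.6 CPM, a ratio of 4.19, or of 4.99 with nothing added (4.10 to 6.06), in 0.478% and 5.24% of cells. The ratio was 2.04 in cells with under 5 division UMIs and 2.17 with 10 CPM added. Stfa1 was at 17.0 and 66.8 CPM (1.92) and Stfa2l1 at 49.3 and 189 CPM (1.91). Over the last 300 transcript bases, where a 3′ kit reads, Stfa2 and Stfa2l1 were 97.6% identical over 248 aligned bases, so the split of reads between them is uncertain. Stfa3, in the same cluster, was at 19.0 and 13.7 CPM (-0.44), so the stefins did not all go one way.

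Interferon-induced transmembrane proteins, which restrict the entry of viruses, were higher as well. Ifitm2 (chromosome 7, 140954837 to 140955987) had the largest ratio of any gene whose mean reached 100 CPM. It was at 283 and 1139 CPM, a ratio of 2.01 (1.94 to 2.08), and had a UMI in 67.7% and 93.9% of cells. Thinned to 1000 UMIs per cell, those shares were 21.7% and 59.1%. Ifitm1 was at 24.4 and 149 CPM (2.56), Ifitm3 at 702 and 1152 CPM (0.71) and Ifitm6 at 2603 and 3993 CPM (0.62). All 4 measured members were thus called higher, against 6% of all genes. They are 4 of the 11 genes called higher in the late list. Ifitm2 was also at 233 and 818 CPM in barcodes outside the granulocyte classes.

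Resistin-like gamma (Retnlg), a secreted protein of maturing neutrophils, was at 5838 and 9935 CPM (0.77), the protease Asprv1 at 25.3 and 93.5 CPM (1.85), Wfdc17 at 24.3 and 80.7 CPM (1.69) and the protease inhibitor Slpi at 557 and 935 CPM (0.75). The G-CSF receptor Csf3r, at 247 and 136 CPM (-0.85), was the gene of the list called lower. The chemokine receptor Cxcr2 was at 513 and 409 CPM (-0.32), the formyl peptide receptor Fpr1 at 106 and 118 CPM (0.16) and the lectin Clec4e at 94.2 and 132 CPM (0.49). The collagenase Mmp8 was at 3443 and 2327 CPM (-0.57) and gelatinase Mmp9 at 2106 and 1880 CPM (-0.16).

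Alarmins are proteins that signal danger once outside the cell. Of 12 in the list 10 were measured, 3 were called higher and none lower, against 6% and 19.8% of all genes, and the median was 0.48. The median stands 0.72 above that of all genes. S100a9, which pairs with S100a8 to form calprotectin, was at 123840 and 169200 CPM, a ratio of 0.45 that is under the 1.5-fold limit. Its partner S100a8 was at 108620 and 115470 CPM (0.09). S100a6 was at 3126 and 6314 CPM (1.01, 0.99 to 1.04) and S100a11 at 1821 and 3312 CPM (0.86). S100a1 had 109 and 201 UMIs (0.64), a ratio that was 0.43 without any UMI of 11 division genes, 0.58 with at least 2000 UMIs per cell and 0.43 with 10 CPM added, all under 1.5-fold. S100a4 was at 52.2 and 75.4 CPM (0.52) and had a UMI in 8.21% and 23.3% of cells. Its ratio ran from 0.002 with 4 bins of the Camp, Ngp and Ltf share weighted equally to 1.51 without cells called doublets, and that of S100a10 (0.52) from 0.14 to 1.33 under the same alternatives. S100a13 had a ratio of 0.40. The nuclear proteins Hmgb1 and Hmgb2 were at 0.14 and -0.05. Il1a and Il33 had no UMI in either library.

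Of 21 measured genes that sense alarmins and process interleukin 1, 3 were called higher and 5 lower, against 6% and 19.8% of all genes, with a median of -0.14. The endotoxin co-receptor Cd14 had 45 and 368 UMIs, 5.75 and 40.7 CPM (2.63), in 3.19% and 17.9% of cells, and its ratio was 1.95 in thinned cells and 1.69 with 10 CPM added. The chemokine Cxcl2 was at 13.5 and 59.9 CPM (2.07) and the inflammasome adaptor Pycard at 59.9 and 123 CPM (1.02). The interleukin 1 receptor antagonist Il1rn was at 84.3 and 30.3 CPM (-1.45), in 34.8% and 17.1% of cells. Interleukin 1 beta, Il1b, was at 29.4 and 10.8 CPM (-1.36), but its ratio was 0.64 without cells called doublets and 0.21 without the 5% of cells with the highest doublet scores in each library. These steps took away 71 and 0 cells, and 67 and 54 cells, respectively. The receptors Tlr4 and Tlr2 were at -0.23 and -0.22 and the adaptor Myd88 at 0.03, close to the median of all genes or above it.

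The list of interferon response genes was lower as a group. Of 48 genes 42 were measured, none was called higher and 29 were called lower, against 6% and 19.8% of all genes, and the median was -0.82. The list leaves out the Ifitm genes given above, which interferon also induces, which were called higher and were counted in the late list. The lowest ratios were those of Stat2, a subunit of the factor that carries the type I interferon signal (24.9 and 8.41 CPM, -1.46), and the schlafens Slfn8 (28.4 and 10.2 CPM, -1.39) and Slfn5 (30.4 and 11.1 CPM, -1.38). The antiviral enzyme Rsad2 was at 48.9 and 20.5 CPM (-1.22), in 18.2% and 7.63% of cells. The RNA-sensing oligoadenylate synthetase Oas3 was at 120 and 66.2 CPM (-0.85) and the ubiquitin-like Isg15 at 40.9 and 25.8 CPM (-0.64). Irf7, the inducible activator of interferon genes, was at 33.6 and 25.9 CPM (-0.36, neither). The list summed to 2211 and 1337 CPM here, and to 3259 and 2242 CPM in barcodes outside the granulocyte classes, where Rsad2 was at 148 and 17.8 CPM. The list holds Bst2, which is also in the dendritic cell list given above, and B-lineage and dendritic cell transcripts were lower in the same library. The Mx1-Cre allele was present in both libraries.

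Factors activated by interferon are known to bind promoter elements whose core repeats GAAA. Windows from 250 bases before to 50 after the gene start (RefSeq, GRCm38.p6) were searched on both strands for GAAANNGAAA. It occurred in 17 of the 31 measured interferon genes with a window (54.8%), of 42 asked, and in 1079 of 27025 genes in all (3.99%). Among interferon genes called lower 13 of 22 held it, and among those called neither 4 of 9. Over all genes, it was in 5.56% of those called lower, 5.37% of those called higher and 4.02% of those measured. The stretches below belong to 4 of the genes called lower with a match before the start, those with the most UMIs. They run 5′ to 3′ on the strand of the gene, with the matches in capitals (in Rsad2 the match is on the opposite strand and reads as its reverse complement, and in Ddx60 and Isg15 there are several).
Oas3, chr5:120777695-120777764, minus strand: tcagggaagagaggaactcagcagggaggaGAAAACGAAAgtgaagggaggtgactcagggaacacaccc
Ddx60, chr8:61928004-61928086, plus strand: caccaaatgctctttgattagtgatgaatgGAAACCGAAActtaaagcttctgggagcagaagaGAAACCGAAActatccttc
Rsad2, chr12:26456533-26456602, minus strand: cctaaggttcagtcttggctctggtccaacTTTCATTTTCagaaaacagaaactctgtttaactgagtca
Isg15, chr4:156200845-156200926, minus strand: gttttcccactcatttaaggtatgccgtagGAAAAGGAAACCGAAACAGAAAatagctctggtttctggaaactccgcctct
Ddx60, a helicase that takes part in RNA sensing, was at 80.2 and 42.6 CPM (-0.90). Among the Ifitm genes, which were higher, 2 of 4 windows held the same motif, Ifitm2 included. A match describes the letters of the window and says nothing of what was bound in these cells.

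**Figure D3:**
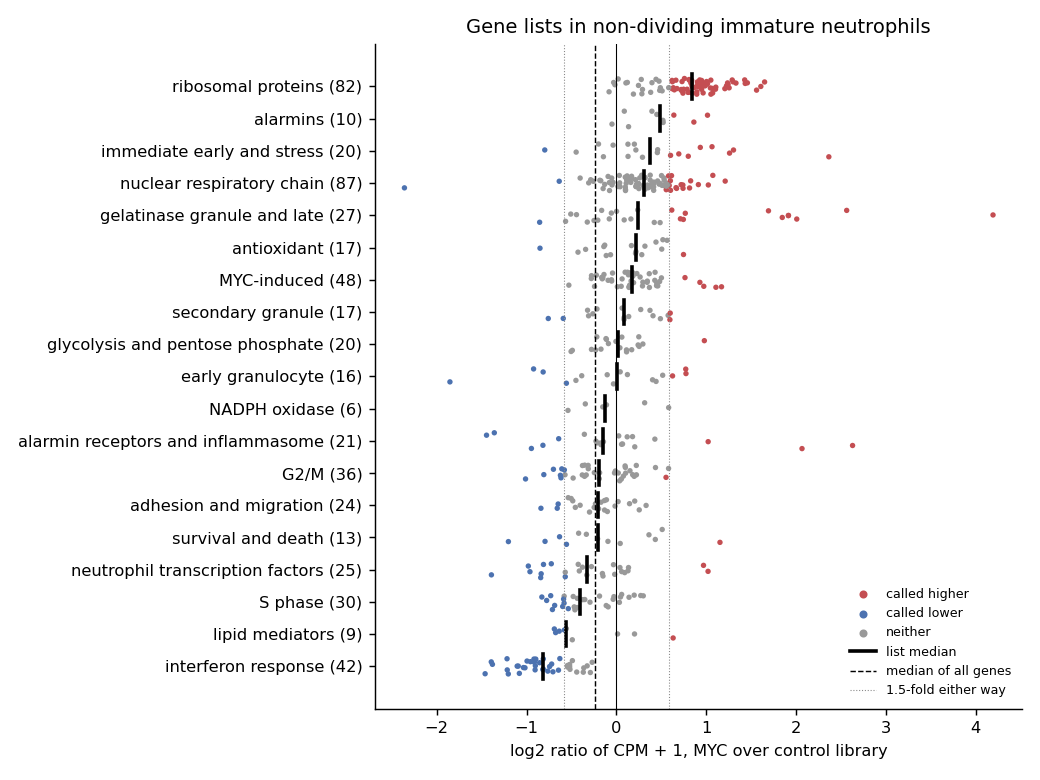
Log2 ratio of MYC over control library (x axis) for each measured gene (points) of 19 gene lists (rows, number of genes in brackets) in non-dividing immature neutrophils. Bars are list medians, the dashed line is the median of all genes (-0.24) and dotted lines are 1.5-fold; the ribosomal list has the highest median (0.84) and the interferon response list the lowest (-0.82).

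Ribosomal protein genes, which encode the structural proteins of the ribosome, were higher. Of 82 measured 63 were called higher and none lower, against 6% and 19.8% of all genes, with a median of 0.84. Rpl32 was at 333 and 1045 CPM (1.65), Rps18 at 190 and 581 CPM (1.61), Rpl12 at 149 and 441 CPM (1.56) and Rpl10a at 135 and 372 CPM (1.46). Rps2, Rpl15, Rpl10, Rps7 and Rps3 had ratios of 1.29 to 1.43. Not every member was higher: Rpl37a was at 943 and 891 CPM (-0.08), Rpl41 at -0.03 and Rps21 at -0.02. Summed, the list took 33208 and 57159 CPM in these cells. In barcodes outside the granulocyte classes it took 138700 and 226830 CPM, which is the same direction, and the part of free RNA from those cells was not tested. AY036118, a noncoding gene that overlaps the ribosomal RNA-like Gm42418 on chromosome 17, was at 323 and 840 CPM (1.38), while Gm42418 was at 97414 and 72311 CPM (-0.43). Reads of these overlapping genes cannot be told apart with certainty.

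MYC is known to induce genes for ribosome assembly, nucleotide synthesis and protein folding. Of 48 measured 5 were called higher and none lower, against 6% and 19.8% of all genes, and their median of 0.17 stood 0.41 above that of all genes. The called genes were the pyrophosphatase Dctpp1 (33 and 97 UMIs, 1.17, and 0.54 with 10 CPM added), the nucleoside diphosphate kinase Nme2 (227 and 575 UMIs, 1.11, and 1.71 without cells called doublets), the ribonucleoprotein Nhp2 (0.97), the helicase Eif4a1 (494 and 1094 UMIs, 0.93) and Nip7 (0.76). Nucleolin (Ncl) was at 119 and 111 CPM (-0.09), nucleophosmin (Npm1) at 101 and 114 CPM (0.18) and ornithine decarboxylase (Odc1), a long-known MYC target, at 18.6 and 12.6 CPM (-0.53). Nuclear genes of the respiratory chain had 17 of 87 called higher and 2 lower, against 6% and 19.8% of all genes, with a median of 0.31. The ATP synthase subunit Atp5g1 was at 28.4 and 67.0 CPM (1.21), while the muscle-type subunit Cox6a2 had 59 and 6 UMIs (-2.36), in 0.957% and 0.449% of cells, and a ratio of -0.52 as a mean over cells. In glycolysis and the pentose phosphate pathway 1 of 20 genes was called, Gapdh, at 757 and 1494 CPM (0.98), and the median was 0.02.

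The rule had used the cell cycle genes Mki67 and Top2a. Of 30 S phase genes 9 were called lower and none higher, against 19.8% and 6% of all genes, with a median of -0.40. The replication licensing factor Cdt1 had 80 and 48 UMIs (-0.83) and the ribonucleotide reductase subunits Rrm1 and Rrm2 had ratios of -0.78 and -0.71. Cdt1 was at -0.39 without any UMI of 11 division genes, and Rrm1 and Rrm2 were at -0.49 and -0.55 with under 5 division UMIs and at -0.54 and -0.48 under median scaling, all short of 1.5-fold. Rrm1 also fell short in thinned cells (-0.58), and all 3 with 10 CPM added. Of 36 G2 and mitosis genes 7 were called lower and 1 higher, against 19.8% and 6% of all genes, with a median of -0.19. Anillin (Anln), a protein of the cytokinetic ring, had 104 and 55 UMIs (-1.01, and -0.53 with 10 CPM added). The S phase median was 0.04 above that of all genes when cells with under 5 division UMIs were kept.

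Of 25 transcription factors of the neutrophil lineage 8 were called lower and 2 higher, with a median of -0.33, which is 0.09 under that of all genes, and lower calls outnumber higher ones over all genes too (19.8% and 6%). Those called lower included Myb (45.7 and 22.7 CPM, -0.98), Gfi1 (-0.96) and Cebpa (-0.84), which act in granulocyte progenitors. Cebpe, which drives the secondary granule genes, was at 410 and 305 CPM (-0.42). Spi1 (PU.1) was at 410 and 450 CPM (0.14). Klf2, a factor of quiescence and restraint of inflammation, was at 295 and 600 CPM (1.02), and Cebpb, which acts in emergency granulopoiesis, at 133 and 261 CPM (0.97). Irf8, a factor of monocytes and dendritic cells, had 299 and 126 UMIs (-1.39), but a ratio of 0.48 without cells called doublets and 0.16 without the 5% of cells with the highest doublet scores. Max, the partner of MYC, was at -0.15 and its antagonist Mxd1 at 683 and 711 CPM (0.06).

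Immediate early and stress genes respond within minutes to signals and to handling of cells. Of 20 measured 8 were called higher, 1 lower and 11 neither, against 6% higher and 19.8% lower of all genes, with a median of 0.37. Egr1 was at 21.5 and 115 CPM (2.36, 2.18 to 2.66), in 7.58% and 35.7% of cells. Nr4a1 was at 11.6 and 29.2 CPM (1.26), Socs3 had 15 and 56 UMIs (1.30, with 0.63 in cells with under 5 division UMIs and 0.44 with 10 CPM added), Junb was at 180 and 378 CPM (1.06) and Fos at 109 and 209 CPM (0.93). Fosb was at 8.43 and 4.43 CPM (-0.80), and the heat shock genes Hspa8 and Hsp90ab1 at -0.04 and 0.20. The time from tissue to droplets in each library is not given in the sources used here, so a difference in handling and 1 in genotype cannot be told apart for these genes.

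The 6 subunits of the NADPH oxidase, which makes superoxide, ran from Cybb at 2996 and 2062 CPM (-0.54) to Cyba at 1340 and 2006 CPM (0.58), with none called. Of 24 adhesion and migration genes 3 were called lower and none higher, against 19.8% and 6% of all genes, with a median of -0.21 that is close to that of all genes. They were the integrins Itga4 (58.6 and 32.3 CPM, -0.84) and Itgal (176 and 112 CPM, -0.65), and Cxcr4, the receptor that retains neutrophils in the marrow (173 and 109 CPM, -0.66). Under median scaling Itgal was at -0.40 and Cxcr4 at -0.41. Itga4 was at -0.50 without cells called doublets, under 1.5-fold, and at -0.62 without the 5% of cells with the highest doublet scores. It was at 239 and 149 CPM in barcodes outside the granulocyte classes. Of 9 genes for lipid mediators 4 were called lower and 1 higher, against 19.8% and 6% of all genes, with a median of -0.56. The 5-lipoxygenase Alox5 was at 196 and 122 CPM (-0.68, and -0.43 under median scaling), whereas its activating protein Alox5ap was at 731 and 1134 CPM (0.63). Of 17 antioxidant genes peroxiredoxin 5 (Prdx5), at 1469 and 2466 CPM (0.75), was called higher and catalase (Cat), with 125 and 76 UMIs (-0.85, and -0.50 with 10 CPM added), lower, and 15 were called neither. Over all genes the shares called higher and lower were 6% and 19.8%, here as for the next list. Of 13 survival and death genes the pro-apoptotic Bax was called higher (90 and 242 UMIs, 1.15) and 4 were called lower, the anti-apoptotic Bcl2 (64 and 27 UMIs, -1.20) and Bcl2l1 (-0.79) and the pro-apoptotic Bak1 (52.9 and 33.8 CPM, -0.63) and Bcl2l11 (89 and 67 UMIs, -0.56). Over the alternatives Bak1 ran from -0.86 to -0.39. Bcl2 and Bcl2l1 were under 1.5-fold with 10 CPM added, as was Bcl2 without cells called doublets (-0.47) and Bcl2l1 under median scaling (-0.56). Mcl1, on which neutrophils depend for survival, was at 261 and 353 CPM (0.43).

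The 12 smallest ratios at a mean of 100 CPM or more included that of Hsp90b1, given above. Tmcc1, a protein of the endoplasmic reticulum membrane (chromosome 6, 116018611 to 116193486), was at 600 and 212 CPM (-1.50, -1.58 to -1.42) and had a UMI in 91.4% and 65.4% of cells. Thrombospondin 1 (Thbs1), a matricellular protein, was at 184 and 67.6 CPM (-1.43). The acyl-CoA synthetase Acsl1 was at 205 and 98.6 CPM (-1.05), the ganglioside synthase St3gal5 at 584 and 295 CPM (-0.98) and the acyltransferase Lpgat1 at 133 and 67.6 CPM (-0.97). The corepressor Irf2bp2 was at 161 and 80.0 CPM and Pbxip1 at 295 and 145 CPM (-1.02). The calcium-binding protein grancalcin (Gca), the focal adhesion protein vinculin (Vcl), the protease cathepsin B (Ctsb) and 9930111J21Rik2 had ratios of -0.92 to -0.96. Tmcc1, Thbs1, St3gal5, Gca, Pbxip1, Lpgat1, Vcl and Acsl1 were at least 1.5 times higher in the selected cells of the control than in its barcodes outside the granulocyte classes.

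Retnlg accumulates as neutrophils mature, and the ratios were computed again within ranges of its share of UMIs. The cells of both libraries were cut into tertiles at 0.120% and 0.951% of UMIs, which gives ranges of a continuum and not cell types, with 93 and 92 cells within 10% of a cut. The lowest tertile held 38.3% of the control cells and 28.7% of the MYC cells, and the highest 26.6% and 39.6%. Retnlg was itself called higher, so these unequal shares restate that difference and do not measure stage on their own. Ifitm2 had ratios of 1.74, 1.97 and 2.05 from the lowest to the highest tertile, Rpl32 of 1.78, 1.76 and 1.82, S100a11 of 0.79, 0.71 and 0.73, and S100a9 of 0.48, 0.46 and 0.39. Tmcc1 was at -1.65, -1.55 and -1.69. Of measured interferon genes 22 of 31, 28 of 33 and 20 of 31 were called lower, against 1306 of 6473, 988 of 5874 and 1083 of 5481 of all genes. Of ribosomal protein genes 68 of 81, 67 of 81 and 65 of 82 were called higher, against 417, 438 and 425 of all genes. The gelatinase and late list, which holds Retnlg, had 6 of 24, 10 of 27 and 9 of 27 called higher and 2, 3 and 6 lower, and its medians of 0.11, 0.07 and 0.12 were under the 0.24 over all cells. Among other genes S100a6 had ratios of 1.42, 0.86 and 0.53, Stfa1 of -0.10, 0.99 and 2.24, and Ifitm1 of 1.04, 1.38 and 3.04.

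**Figure D4:**
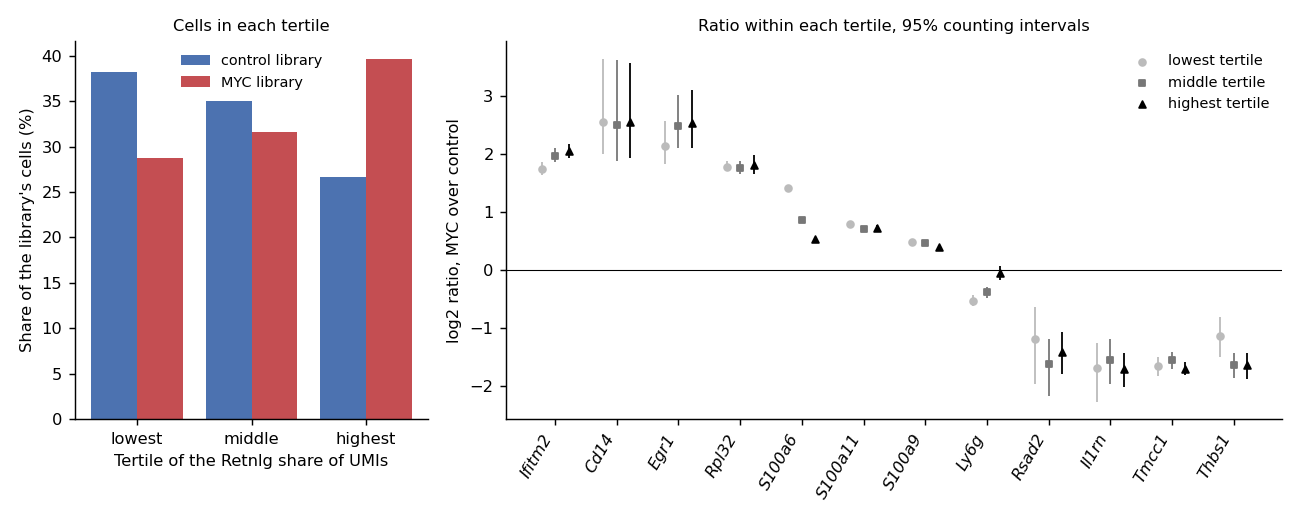
Left, share of each library's non-dividing immature neutrophils (y axis, %) in tertiles of the Retnlg share of UMIs cut over both libraries; the highest tertile holds 26.6% of control and 39.6% of MYC cells. Right, log2 ratio of MYC over control within each tertile for 12 genes (points, bars are 95% counting intervals of the ratio with nothing added); the ratio of S100a6 is 1.42 in the lowest tertile and 0.53 in the highest.

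The same ratios were computed in related classes, whose cells come from the same 2 libraries, so that the classes share their controls and the values stand side by side without a test. They were the cells past the granule limits with 10 or more division UMIs (1201 and 1219), granulocyte progenitors (366 and 337) and mature neutrophils (1336 and 1212). List medians are read against those of all measured genes, which were -0.24 in the non-dividing cells, -0.22 in the dividing cells, -0.28 in progenitors and -0.16 in mature neutrophils. Ribosomal protein genes had medians of 0.84 in non-dividing immature neutrophils, 0.59 in the dividing cells, 0.37 in progenitors and 0.84 in mature neutrophils. Interferon response genes were at -0.82, -0.69, -0.82 and -0.999. The alarmin medians were 0.48, 0.41, 0.09 and 0.53, and the median of immediate early genes 0.37, 0.44, -0.03 and 0.13. Among single genes S100a6 had ratios of 1.01 in the non-dividing cells, 1.34 in the dividing cells, 0.43 in progenitors and 0.36 in mature neutrophils. Ly6g was at -0.37, -0.35, -0.04 and 0.38 and was called in none of these classes. It was called lower in all cells past the granule limits with 1 or more division UMI, at 335 and 223 CPM (-0.59). Ifitm2 was at 2.01, 1.56, 1.30 and 1.95, and Tmcc1 at -1.50, -1.55, -1.90 and -1.69. Cd14 was at 2.63, 1.002, 1.48 and 3.11. No list or gene is called particular to the non-dividing immature cells.

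**Figure D5:**
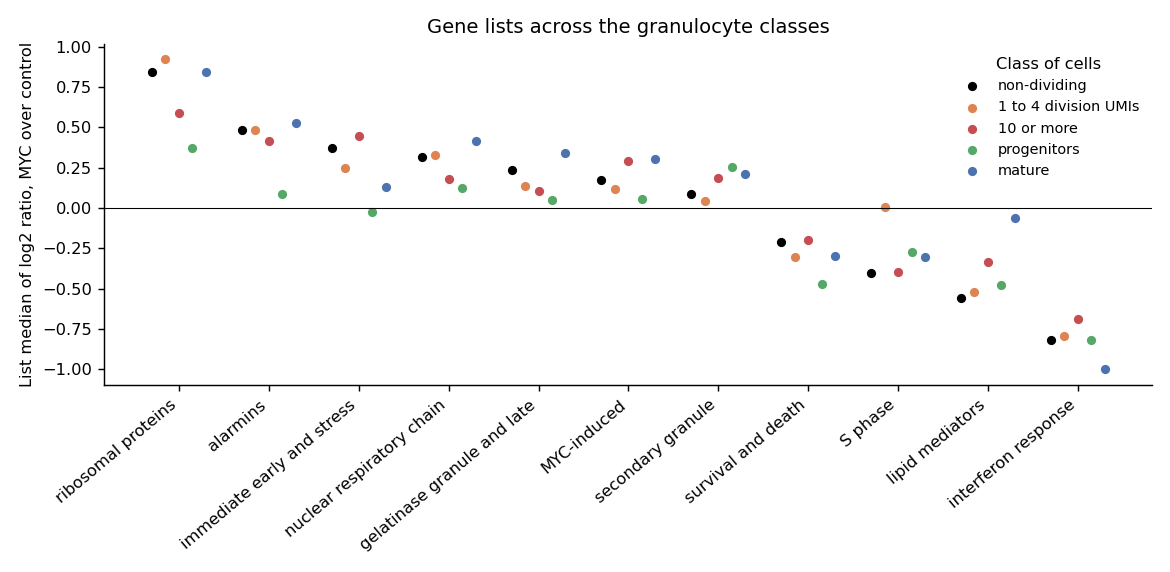
Median log2 ratio of MYC over control (y axis) of 11 gene lists (x axis) in non-dividing immature neutrophils, cells past the same granule limits with 1 to 4 or with 10 or more division UMIs, granulocyte progenitors and mature neutrophils. Ribosomal genes have a median above 0 (0.37 to 0.92) and interferon response genes a median below 0 (-0.999 to -0.69) in each class. The medians of all measured genes in these classes, not drawn, run from -0.28 to -0.16.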

How the data were processed

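Mouse marrow cells were profiled with a droplet 3′ kit per the labels' protocols, in 2 libraries, 1 per genotype. The deposited matrices hold raw UMI counts, and per the file headers the software was Cell Ranger 6.0.0. The submitters' processing notes name Cell Ranger 6.0, Seurat, GRCm38 and mm10 without their roles. How barcodes were called as cells is not given in the sources used here. Gene positions came from GENCODE vM21, which matched 99.6% of 32286 features. UMI counts of the selected cells were summed per library and scaled to 1000000, and log2 ratios took a pseudocount of 1 CPM. Exact conditional binomial 95% intervals are those of the ratio without it. Shares have Clopper-Pearson intervals and differences Newcombe intervals. The steps were tested on simulated data. Doublets were not removed: Scrublet (scanpy 1.11.5) called 670 control barcodes and 0 of 10543 MYC barcodes at its automatic threshold, so in the MYC library it did not work. The genes named are the 12 highest and 12 lowest ratios at a mean of 100 CPM or more, the markers, MYC, Myc, the alarmins, up to 4 called genes of each list, and further list members shown for their role. Members and lists were chosen with earlier results of these data known. The 19 alternatives changed the cell limits, division filter, doublets, scaling, weighting, depth, stage, gene minimum and pseudocount. Depth gives a gene of 50 UMIs a wide interval, and 1 library per group gives no error between mice.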

Additional observations from a re-analysis of the deposited data

Results flagged for a closer look

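In 4 genes the libraries differed one way in the non-dividing immature neutrophils and the other way in mature neutrophils, called in both classes on CPM with nothing added. They were 4 of the 1650 genes called lower in the immature cells, while 8.63% of the genes measured in mature neutrophils were called higher there, and none of the 499 called higher was called lower there. The difference between the classes was not tested, and counting intervals, of the ratio with nothing added, came near 0 in several. Ffar2, a receptor for short-chain fatty acids, had a ratio of -0.91 in the immature cells (112 and 59.1 CPM, interval -1.08 to -0.77) and 0.71 in mature neutrophils (6.51 and 11.3 CPM, 0.16 to 1.45). B230216N24Rik was at -0.78 (19.9 and 11.2 CPM, -1.21 to -0.46) against 0.60 (7.50 and 11.9 CPM, 0.057 to 1.28). The mitochondrial protease Afg3l2 was at -0.60 (16.6 and 10.6 CPM, -1.04 to -0.25) against 0.66 (5.33 and 8.99 CPM, 0.043 to 1.495). The endocytic receptor Lrp1 was at -0.52 with 1 CPM added, 8.81 and 5.87 CPM (-1.13 to -0.050), against 0.70 (8.68 and 14.7 CPM, 0.21 to 1.33), and at 0.56 in the cells with 10 or more division UMIs.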

How the results depend on the processing

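With 1 library per group and no replicate numbers to share, no paired analysis was possible because each group holds a single library. The difference in the share of member cells, 3.22 points, was 4.78 with at least 1% Camp, Ngp and Ltf, 2.09 with at least 4%, 1.65 without any UMI of 11 division genes and 0.903 with under 5 division UMIs. The counts of genes higher in the MYC library and genes lower in the MYC library, 499 and 1650, were 1035 and 628 with median of ratios scaling, 309 and 746 with cells thinned to 1000 UMIs (fewer genes reached 50 UMIs) and 310 and 902 with a minimum of 200 UMIs (fewer genes tested). Of 84 called genes followed, 68 stayed past 1.5-fold under median of ratios scaling and 64 with a pseudocount of 10 CPM. Under the other 17 settings 0 to 8 of the genes that had a value did not. Thinning left a value for 64 of the 84, of which 60 stayed. The calls that turned were Irf8, at 0.478 without Scrublet doublets and 0.161 without the top 5% of scores, and Il1b, at 0.636 and 0.210. List medians are given here relative to the median of all genes. Survival and death turned to -0.055 without any UMI of 11 division genes, -0.049 without Scrublet doublets, -0.138 as a mean over cells, -0.056 with 4 bins and -0.036 with Retnlg tertiles weighted equally, and -0.037 with a pseudocount of 10 CPM. Adhesion and migration turned to -0.072, -0.030 and -0.061 under the last 3 of these and to -0.034 with no gene minimum. S phase turned to 0.043 with under 5 division UMIs and 0.044 with a minimum of 200 UMIs, NADPH oxidase to -0.077 with thinned cells, and G2/M to -0.013 with no gene minimum. The cause was not tested in any of these. The filter on under 5 division UMIs, the removal of top scores and the weighting of Retnlg tertiles were chosen after seeing the data.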
